A study of Rattus norvegicus with 31 samples.

Results

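The respiratory chain and the ATP synthase of the mitochondrial inner membrane are built from 5 protein complexes, and most of their subunits are encoded in the nucleus. The genes described here were the rows of the rat count table whose symbols follow the naming of nuclear-encoded subunits: Nduf followed by a, b, c, s or v and a number for complex I, Sdha to Sdhd for complex II, Uqcr for complex III, Cox4 to Cox8 for complex IV and Atp5 for complex V. This gave 84 of the 20207 listed genes, with 36 in complex I, 4 in complex II, 8 in complex III, 19 in complex IV and 17 in complex V. The choice used symbols only and no measured value.

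RNA from whole pieces of kidney cortex and colon of rats (Rattus norvegicus) was sequenced in 3 groups: CAL, given a high salt diet with calcitriol, the active hormone form of vitamin D; HS, the high salt model without calcitriol; and NC, the normal control. The cortex had 6 CAL, 4 HS and 5 NC libraries, and the colon had 6 CAL, 5 HS and 5 NC libraries, 31 in all. High salt is shared by CAL and HS, so CAL against HS shows calcitriol under high salt, HS against NC shows high salt, and CAL against NC shows both together. Strain, sex, age, dose and duration were not used here, and no label ties a cortex and a colon library to one animal. Depth was low, at 289529 to 2265164 counts per cortex library and 267976 to 918820 counts per colon library. The tissue labels were borne out by markers: the summed level of 8 proximal tubule markers was 7796 to 11850 CPM (counts scaled to a common library size) in cortex libraries and 34.6 to 245.2 CPM in colon libraries, and that of 7 colonocyte markers was 154.3 to 245.2 CPM in cortex and 8069 to 19440 CPM in colon. The sum of 4 goblet cell markers was not near 0 in cortex, at 1560 to 7318 CPM, beside 13960 to 26520 CPM in colon. Only 1 of the 4 had enough counts to be tested in cortex, and Clca1 had none in NC cortex. All 4 were lower in NC cortex than in NC colon by the test described below, with a median log2 fold change of -10.67. In such tissue pieces, fewer cells of a type and less RNA per cell cannot be told apart.

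Complex I takes electrons from NADH and complex II from succinate, complex III passes them from ubiquinol to cytochrome c, and complex IV hands them to oxygen. Complexes I, III and IV pump protons, and complex V uses the resulting gradient to make ATP. The proximal tubule of the kidney cortex relies on this oxidative ATP supply for sodium and solute reabsorption, while colonocytes are known to oxidise butyrate made by gut bacteria. The catalytic subunits of complex IV and part of the membrane arm of complex I are encoded in the mitochondrial genome. The 13 protein genes of that genome were listed at 0 in all libraries, so the nuclear genes could not be set beside them.

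Of the 84 genes, 72 had enough counts to be tested in each tissue: 34 of complex I, 4 of complex II, 8 of complex III, 11 of complex IV and 15 of complex V. Most of the 12 untested rows were isoforms known from other tissues. Cox4i2, a lung-enriched and oxygen-sensitive form of Cox4, had 14 counts over the 15 cortex libraries and 73 over the 16 colon libraries. The striated muscle forms Cox6a2, Cox7a1 and Cox8b had 23, 8 and 32 counts in cortex and 26, 23 and 5 in colon. The testis forms Cox6b2, Cox7b2 and Cox8c had 11, 0 and 0 counts in cortex and 43, 0 and 2 in colon. Ndufa4l2, a hypoxia-induced relative of Ndufa4, had 23 counts in cortex and 14 in colon, and the pseudogene row Cox6c-ps1 had none in either. The other 3 untested rows are subunits that mitochondria of all tissues use: Ndufa1 had 9 counts in cortex and 10 in colon, Atp5md 36 and 23, and Atp5pb, the stator subunit b of complex V, 32 and 12. What holds these 3 rows near 0 was not tested, and they are not read here as low expression. Of the 84 rows, 39 belong to genes with a named pseudogene in the RefSeq annotation of the GRCr8 assembly, so their counts are uncertain where reads could be shared. Among the genes named below these are Ndufa4, Ndufa7, Ndufb10, Ndufb4, Ndufv2, Sdhc, Sdhd, Uqcr10, Uqcrb, Cox4i1, Cox5b, Cox6a1, Cox6b1, Cox7b, Atp5f1b, Atp5f1e, Atp5if1, Atp5mc2, Atp5pd, Atp5pf and Atp5po.

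RefSeq promoter windows on GRCr8, running from 250 bases before to 50 bases after the annotated start, were found for 73 of the 84 genes. They are shown because nuclear respiratory factor 1 (NRF1) is the factor best known for binding promoters of this gene family. The letters GCGCANGCG, the core of the NRF1 motif, were found on either strand in 17 of the 73 windows (23.3%) and in 5.8% of the 33469 windows of all genes. AANATGGCG, a core of the YY1 motif, was in 23.3% of the genes' windows and 3.01% of all windows, ACCGGAAG, an ETS motif core, in 9.59% and 2.49%, and TNAAGGTCA, the half-site of estrogen-related receptors, in 4.11% and 1.2%. The windows were also richer in G and C than all windows, with a median of 56% against 51.7%, and the part of base composition in these shares was not tested. A match is a description of letters, not a binding site. The 250 bases before the start follow for Atp5mc2 (GRCr8 chr7:135678219-135678468, minus strand), Atp5po (chr11:44657484-44657733, minus strand) and Sdha (chr1:30764303-30764552, plus strand), with the NRF1 core in capitals. They are examples of windows that hold this core. It was absent from the windows of Ndufs7, Ndufv1, Ndufb5, Atp5f1d, Ndufa4 and Atp5f1a, which are also named in the results below. The Atp5mc2 window lies within the annotated span of its gene, which runs to base 135680839, so the start it precedes is not the outermost one. In Atp5mc2 and Atp5po the core reads on both strands as overlapping matches, and in Sdha it occurs at 2 places. The last is Ndufb7 (chr19:41477292-41477541, minus strand), the gene with the smallest p between HS and NC cortex, whose window holds none of the 4 motifs.
Atp5mc2: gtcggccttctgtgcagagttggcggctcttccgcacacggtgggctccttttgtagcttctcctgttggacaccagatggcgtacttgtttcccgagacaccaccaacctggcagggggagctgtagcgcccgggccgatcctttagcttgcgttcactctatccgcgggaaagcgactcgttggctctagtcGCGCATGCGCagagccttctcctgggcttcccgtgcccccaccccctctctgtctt
Atp5po: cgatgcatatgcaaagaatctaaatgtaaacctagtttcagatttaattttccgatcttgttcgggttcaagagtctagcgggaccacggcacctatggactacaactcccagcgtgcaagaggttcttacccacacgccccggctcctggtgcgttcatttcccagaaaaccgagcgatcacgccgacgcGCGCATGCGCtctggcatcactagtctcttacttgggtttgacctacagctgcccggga
Sdha: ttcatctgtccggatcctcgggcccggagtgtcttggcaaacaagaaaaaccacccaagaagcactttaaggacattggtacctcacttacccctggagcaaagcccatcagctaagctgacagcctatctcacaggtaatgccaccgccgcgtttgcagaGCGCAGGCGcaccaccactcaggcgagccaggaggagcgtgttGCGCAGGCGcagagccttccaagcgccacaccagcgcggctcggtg
Ndufb7: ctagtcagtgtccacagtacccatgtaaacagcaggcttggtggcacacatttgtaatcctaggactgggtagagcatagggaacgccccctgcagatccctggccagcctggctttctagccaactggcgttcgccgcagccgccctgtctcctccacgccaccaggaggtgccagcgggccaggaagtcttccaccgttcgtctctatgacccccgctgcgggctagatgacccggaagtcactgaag

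The largest contrast was between the tissues. In NC rats, 40 of the 72 tested genes were higher in cortex than in colon and 2 were lower at a Benjamini-Hochberg adjusted p under 0.05 in edgeR's quasi-likelihood test, fitted over all 31 libraries. Over all 9128 genes tested, 28.4% were higher and 30.4% lower in NC cortex. The median log2 fold change of the 72 genes was 0.52, beside -0.06 over all genes tested. By complex, 24 of 34 genes were higher in cortex in complex I, 3 of 4 in complex II, 4 of 8 in complex III, 1 of 11 in complex IV and 8 of 15 in complex V. The genes were also read by role, a division made after values had been seen. Counted as core were the subunits that hold the redox centres of complexes I to III, and all 4 of complex II. In complex V the F1 and c-ring subunits were counted as core. Of the tested stator subunits of complex V, Atp5po was counted as core and Atp5pd and Atp5pf as other. The rest, including every nuclear subunit of complex IV, were counted as other. Of 21 core genes tested, 19 were higher in NC cortex and none was lower, with a median log2 fold change of 0.95. Of 51 other genes, 21 were higher and 2 lower, with a median of 0.37.

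**Figure D1:**
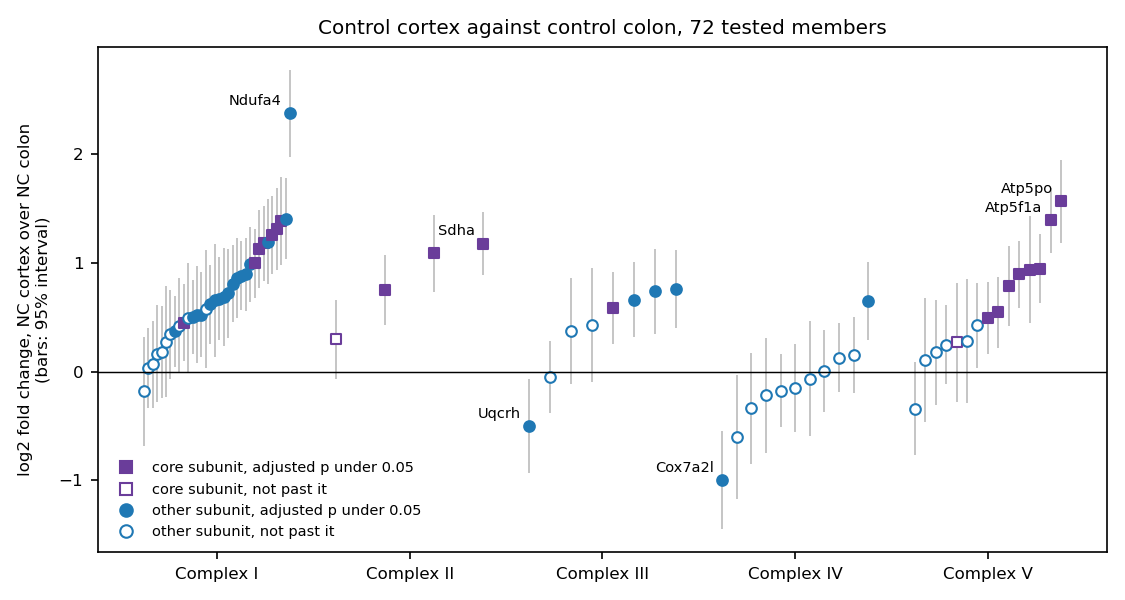
Log2 fold change of each of the 72 tested genes in NC cortex over NC colon, ordered within its complex, with 95% intervals; squares are core subunits, circles other subunits, and filled symbols have an adjusted p under 0.05. Complexes I, II, III and V lie mostly above 0, with medians of 0.66, 0.92, 0.50 and 0.49, while complex IV has a median of -0.15.

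In complex I, all 7 core genes were higher in NC cortex, though the Ndufv2 call was lost without NC cortex replicate 2 (adjusted p = 0.0624) or NC colon replicate 3 (adjusted p = 0.0642). Ndufs1, which carries iron-sulfur clusters of the electron path, was at 403, 434.8, 339, 345.9 and 363.4 CPM in NC cortex, against 141.4, 169.1, 173.7, 164.1 and 111.4 CPM in NC colon. The lowest cortex library was above the highest colon library, and the log2 fold change was 1.32 (SE 0.19, adjusted p = 2.229e-07). Ndufs8, another iron-sulfur subunit, differed by 1.39 (SE 0.20) and Ndufv1, the NADH-binding flavoprotein, by 1.18 (SE 0.17). Ndufa4 had the highest log2 fold change of the 72 genes at 2.38 (SE 0.20, adjusted p = 1.106e-12). Its level was 1303 to 1885 CPM (median 1520) in NC cortex and 241.1 to 367.6 CPM (median 288.8) in NC colon, with no overlap. Ndufa4 carries a complex I name but has since been assigned to complex IV, which the symbol rule does not take into account. Ndufa10l1, whose symbol marks it as a relative of Ndufa10, was higher by 1.41 (SE 0.18). The 10 complex I genes that missed the threshold included Ndufa7 at -0.18 (95% interval -0.69 to 0.32) and Ndufb4 at 0.03 (-0.34 to 0.40).

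In complex II, Sdha, the flavoprotein that oxidises succinate, had 1130, 1232, 1177, 1297 and 1053 CPM in NC cortex and 498.3, 549.1, 477.1, 574.2 and 499.8 CPM in NC colon. Every cortex library was above every colon library, and the log2 fold change was 1.18 (SE 0.14, adjusted p = 7.54e-09). Sdhb, its iron-sulfur partner, differed by 0.75 (SE 0.16), and the membrane anchor Sdhc by 1.09 (SE 0.18). The other anchor, Sdhd, did not pass the test at 0.30 (95% interval -0.07 to 0.66). In complex III, Uqcrfs1, the Rieske iron-sulfur protein, was higher by 0.58 (SE 0.16), and the processing-peptidase-like core proteins Uqcrc1 and Uqcrc2 by 0.66 (SE 0.17) and 0.76 (SE 0.18). Uqcrh, the acidic hinge protein beside cytochrome c1, was lower by the test at -0.50 (SE 0.21, adjusted p = 0.0424). Its 448.5 to 657.2 CPM in NC cortex and 628.5 to 989.6 CPM in NC colon overlapped. The Uqcrh call was lost when NC cortex replicate 1, 3, 4 or 5, NC colon replicate 1 or 5, HS cortex replicate 4 or CAL cortex replicate 5 was left out, with adjusted p between 0.0505 and 0.128, and under DESeq2 (adjusted p = 0.054).

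Complex IV, without Ndufa4 by the symbol rule, stood on the other side of 0 in 7 of its 11 tested genes, of which 1 passed the test. Cox7a2l, which is known for joining complexes III and IV into supercomplexes, had 222, 205.2, 144, 189.1 and 221.8 CPM in NC cortex, against 487.7, 360.6, 331.9, 372.3 and 417 CPM in NC colon. No cortex library reached the lowest colon library, and the log2 fold change was -1.002 (SE 0.22, adjusted p = 0.000232). Cox8a, the common isoform of the smallest subunit, was the only complex IV gene that was higher, with 1185 to 1495 CPM in NC cortex and 782.9 to 904.1 CPM in NC colon, a log2 fold change of 0.65 (SE 0.18, adjusted p = 0.00201). Cox4i1, the common isoform of subunit 4, had 2134 to 3143 CPM in NC cortex and 2441 to 3377 CPM in NC colon, and the ranges overlapped. Its log2 fold change was -0.15 (95% interval -0.56 to 0.25). Cox5b was at 0.00 (-0.38 to 0.38).

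In complex V, Atp5f1a, the alpha subunit of the catalytic F1 head, had 3117 to 3488 CPM (median 3407) in NC cortex and 1165 to 1371 CPM (median 1276) in NC colon, a log2 fold change of 1.39 (SE 0.15, adjusted p = 3.602e-10). The catalytic beta subunit Atp5f1b differed by 0.90 (SE 0.15). Atp5po, the oscp subunit that ties the stator to F1, had 2395, 2302, 1886, 1758 and 2319 CPM in NC cortex and 832.3, 767.6, 692.4, 628.5 and 676.5 CPM in NC colon. The tissues did not overlap for Atp5f1a or Atp5po, and Atp5po differed by 1.57 (SE 0.19, adjusted p = 6.602e-09). All 8 complex V genes that were higher were core. None of the 6 other genes passed the test, and these include the stator subunits Atp5pd and Atp5pf. Also among the 6 was Atp5if1, the inhibitor that blocks ATP hydrolysis, at -0.34 (95% interval -0.77 to 0.08). The NRF1 core was in the windows of 10 of 36 genes higher in NC cortex (27.8%) and 7 of 27 tested genes that were not (25.9%), and the YY1 core in 27.8% and 22.2%. The choice of scaling bore on the tissue counts: with library totals in place of TMM, the median of all genes tested was -0.17 instead of -0.06, and 36 of the 72 genes were higher and 4 lower.

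Summed counts of each complex, as a share of all counts of a library, show the same tissue difference without a fit. The 84 genes held 6.13 ± 0.50% of counts in CAL cortex (SD, n = 6), 6.07 ± 0.29% in HS cortex (n = 4) and 6.15 ± 0.30% in NC cortex (n = 5). In colon they held 4.91 ± 0.92% in CAL (n = 6), 4.12 ± 1.06% in HS (n = 5) and 4.62 ± 0.16% in NC (n = 5). In NC rats, complex I held 1.69 ± 0.09% of counts in cortex and 1.11 ± 0.05% in colon, complex II 0.451 ± 0.011% and 0.263 ± 0.011%, complex III 0.652 ± 0.022% and 0.532 ± 0.029%, and complex V 2.22 ± 0.10% and 1.44 ± 0.04%. Complex IV held 1.13 ± 0.09% in NC cortex and 1.27 ± 0.06% in NC colon. These complex IV sums leave out Ndufa4, which the symbol rule placed in complex I. Its median was 1520 CPM in NC cortex and 288.8 CPM in NC colon. Counting it in complex IV would raise the cortex share more than the colon share, so the complex IV difference depends on this placement. Sums with Ndufa4 moved were not computed. These sums are descriptions over genes chosen with earlier results known, and no p is given for them.

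**Figure D2:**
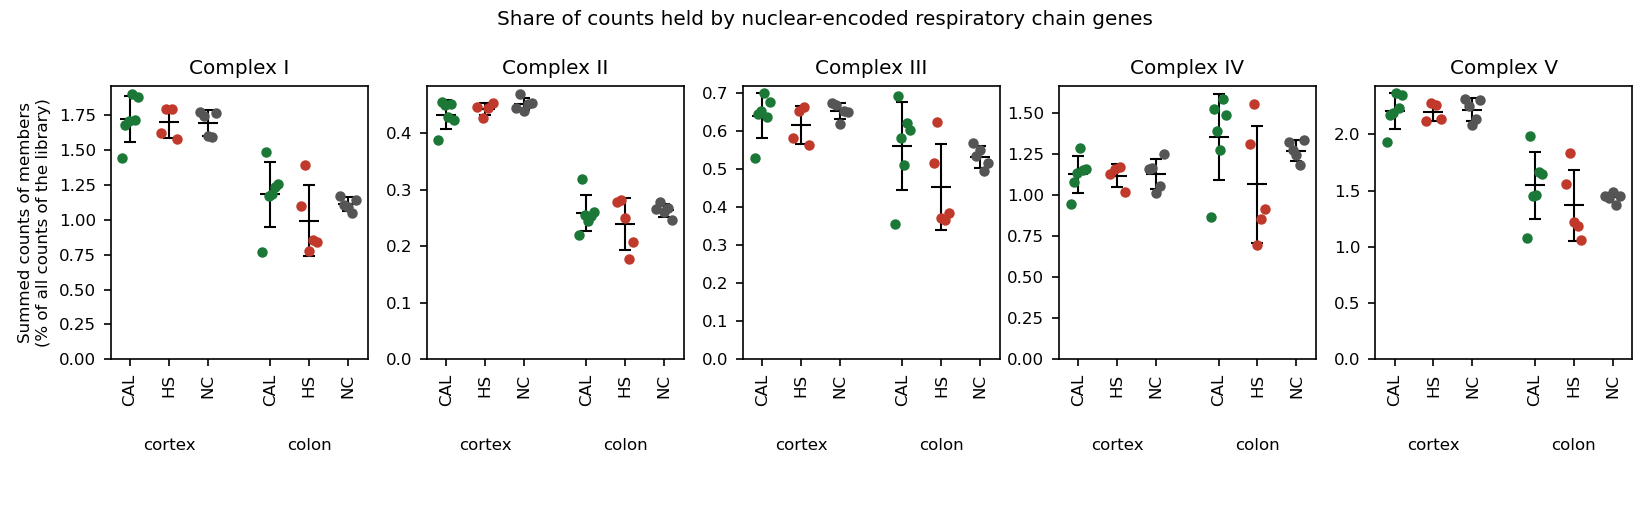
Summed counts of the genes of each complex as a percentage of all counts, 1 point per library, with mean and SD, for CAL, HS and NC in cortex (left) and colon (right). Cortex groups overlap in every complex, while 3 HS colon libraries and 1 CAL colon library lie below the NC colon range of the sum over all complexes, 4.36% to 4.79%.

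Of the 72 tested genes, 2 were higher and 5 lower in HS than in NC cortex. Over all 7524 genes tested, 7.35% were higher and 3.69% lower, so 7 of 72 is close to the share over all genes. The 72 genes had a median log2 fold change of -0.04 and a range of -0.56 to 0.48, beside a median of -0.01 over all genes tested, and 29 had an unadjusted p under 0.05, as had 2055 of all 7524. With no low-count filter 3 of the genes were called, and with limma voom 14. The share of all genes called in those fits is not given here, so these counts are not read against it. Complex I had 1 gene higher and 3 lower, complex III 1 higher, complex V 2 lower, and complexes II and IV none. By role, 4 of 21 core genes were lower and none higher, and 2 of 51 other genes were higher and 1 lower. The medians of both classes were alike, at -0.05 for core and -0.04 for other genes, and 8 core genes had a positive log2 fold change, among them Ndufs1 at 0.31.

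Ndufs7, the subunit with the last iron-sulfur cluster before ubiquinone, had 427.8, 405.9, 490.8 and 402.2 CPM in HS cortex, against 620.9, 627.8, 601.3, 613 and 708.9 CPM in NC cortex. All 4 HS libraries were below all 5 NC libraries, of which replicate 5 stood above the rest, and the log2 fold change was -0.56 (SE 0.14, adjusted p = 0.0117). Ndufb7, an accessory subunit on the intermembrane face of the membrane arm, had 248.3, 314.3, 319 and 290 CPM in HS cortex, against 399.8, 421.4, 423.1, 413.9 and 478.7 CPM in NC cortex. The groups again did not overlap, with a log2 fold change of -0.55 (SE 0.12, adjusted p = 0.00766). Ndufv1 had 427.8, 434.8, 515.3 and 555 CPM in HS cortex and 625.2, 598.1, 709.4, 622.9 and 623.8 CPM in NC cortex, with no overlap, replicate 3 standing above the other NC libraries, and a log2 fold change of -0.39 (SE 0.11, adjusted p = 0.0277). Ndufs7 and Ndufb7 passed the test with each single cortex library left out, with adjusted p of at most 0.0497 for Ndufs7 and 0.0329 for Ndufb7.

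Both complex V genes that fell are core. Atp5mc2, one of 3 genes that encode the same mature c-ring subunit, had 370.2, 434.8, 364.6 and 384.3 CPM in HS cortex and 560, 469, 493.3, 502.6 and 540.4 CPM in NC cortex. Its groups did not overlap, and the log2 fold change was -0.40 (SE 0.12, adjusted p = 0.0283). Atp5f1d, the delta subunit of the central stalk, had 642.8, 701.9, 795.8 and 682.7 CPM in HS cortex and 934.2, 814.7, 943.4, 930.4 and 980.7 CPM in NC cortex. The highest HS library was just below the lowest NC library, and the log2 fold change was -0.39 (SE 0.12, adjusted p = 0.0393). The alpha and beta subunits of F1 did not pass the test, with Atp5f1a at -0.15 (SE 0.10) and Atp5f1b at 0.03 (SE 0.10). Atp5f1a had 2789 to 3028 CPM in HS cortex and 3055 to 3362 CPM in NC cortex, also without overlap.

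Uqcrb, a complex III subunit beside the ubiquinone site, had 598.5, 601.2, 592.4 and 531.1 CPM in HS cortex, against 395.5, 522.5, 441.1, 421.8 and 415.3 CPM in NC cortex. All 4 HS libraries were above all 5 NC libraries, although replicate 4 stood below the other HS libraries, with a log2 fold change of 0.40 (SE 0.11, adjusted p = 0.0259). Ndufb5, an accessory subunit of the membrane arm, had 651.7, 769, 697.6 and 540.6 CPM in HS cortex and 490.5, 570.9, 403.3, 400.1 and 507 CPM in NC cortex. HS replicate 4 lay below NC replicate 2, and the log2 fold change was 0.48 (SE 0.14, adjusted p = 0.0263). The 4 complex II genes lay between -0.08 and 0.03, with Sdha at -0.01 (SE 0.11) and Sdhb at -0.01 (SE 0.11). In complex IV, Cox7b came nearest to the threshold at 0.44 (SE 0.16, adjusted p = 0.0764), while Cox4i1 was at -0.23 (SE 0.13) and Cox8a at -0.16 (SE 0.11).

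Single libraries decided 5 of the 7 calls. The adjusted p of Uqcrb was 0.0527 to 0.0825 without NC cortex replicate 1, 4 or 5 or HS cortex replicate 1 or 2, and that of Ndufb5 was 0.0533 to 0.105 without NC replicate 3 or 4 or HS replicate 1, 2 or 3. The adjusted p of Ndufv1 was 0.0668 to 0.116 without NC replicate 3 or HS replicate 1 or 2, and that of Atp5mc2 was 0.0586 to 0.0749 without NC replicate 1 or 5 or HS replicate 1, 3 or 4. The adjusted p of Atp5f1d was 0.0662 to 0.104 without NC replicate 1, 3, 4 or 5 or HS replicate 1, 2 or 4. In all these fits the 5 genes kept their direction. The number of genes called was 4 without NC replicate 1, 3 or 4, 2 without HS replicate 1 and 3 without HS replicate 2. Beside these results, the summed level of 4 erythrocyte markers was 941.3 to 1722 CPM in HS cortex and 3805 to 19630 CPM in NC cortex. These ranges did not overlap. All 4 markers were lower by the test, beside 3.69% of all genes, and none of the 4 was at 0 in a whole group. The part of this sum in the results was not tested. Of 4 distal tubule markers, 3 were tested, of which 1 was higher by the test and 1 had a negative log2 fold change. The sum of the 4 was 998.2 to 1658 CPM in HS cortex and 523 to 730.2 CPM in NC cortex, also without overlap, with Pvalb at 0 in both groups. The sum of 3 endothelial markers, of which 2 were tested and 1 was lower, was 81.2 to 96.71 CPM in HS cortex and 96.72 to 118.5 CPM in NC cortex. The proximal tubule sum was 8432 to 10220 CPM in HS cortex and 9071 to 11850 CPM in NC cortex, with none of its 8 markers called, and the part of these cell types was not tested either.

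**Figure D3:**
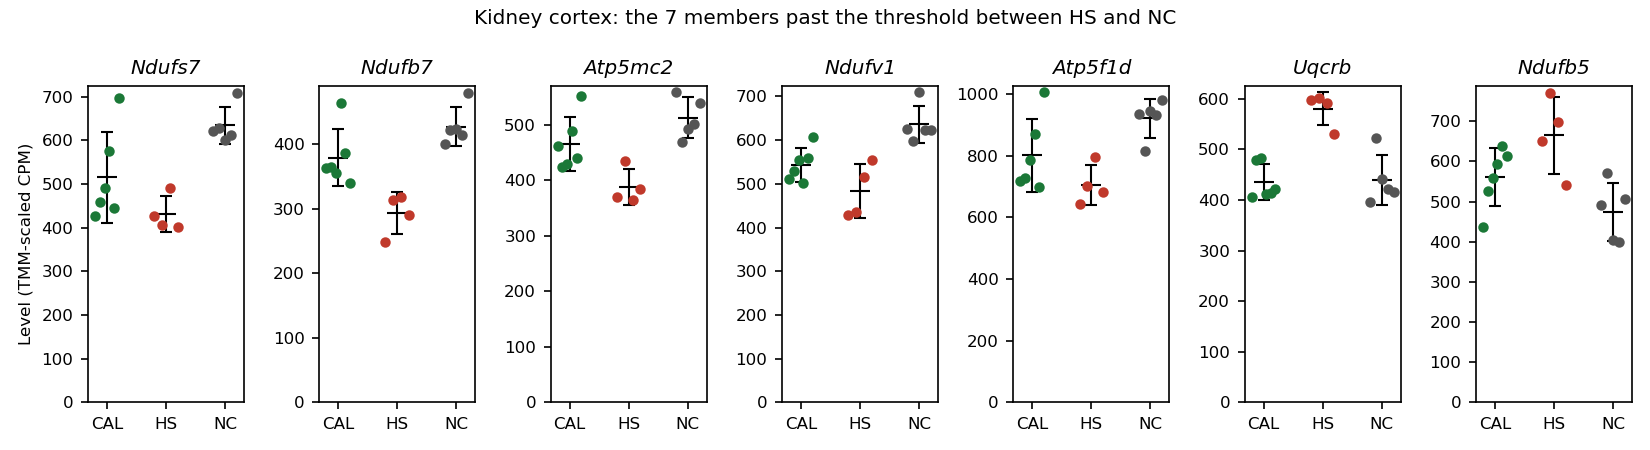
Level of the 7 genes that passed the test between HS and NC cortex, in CPM after TMM scaling, 1 point per library with mean and SD, for CAL (n = 6), HS (n = 4) and NC (n = 5). HS libraries lie below all NC libraries in the first 5 panels and above them for Uqcrb, while for Ndufb5 the groups overlap. Lack of overlap was not particular to these genes, since Uqcrc1, Ndufs3 and Atp5f1a, among others, did not overlap and did not pass the test. How many of all genes tested did so was not counted.

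Genes around the chain were read from lists chosen with earlier results of these data known, and their counts stand beside the 7.35% of all genes that were higher and 3.69% that were lower. Of 47 tested assembly factors, 5 were higher and 1 lower in HS than in NC cortex: the complex I factor Ndufaf4 at 0.92 (adjusted p = 0.0167), Coa5 at 0.62 and Cox16 at 0.55 for complex IV, Tmem70 at 0.47 for complex V and Sdhaf2, needed to flavinate Sdha, at 0.44 rose, while the copper-handling factor Cox19 fell by 0.54 (adjusted p = 0.0486). The median over the 47 factors was 0.13. Of 18 electron carrier and coenzyme Q genes, Cycs, which encodes cytochrome c, rose by 0.81 (adjusted p = 0.0171) and Coq10b by 0.96, and Coq8a fell by 0.70. Of 15 regulators, 2 were higher: Tfb2m, a mitochondrial transcription factor, at 0.96 (adjusted p = 0.0205) and Esrrg, an estrogen-related receptor, at 0.68 (adjusted p = 0.00857). Of 17 tricarboxylic acid cycle genes, Dld at 0.75, Sucla2 at 0.64 and Pdhb at 0.41 were higher, and Cs, citrate synthase, was lower at -0.46. Of 68 mitochondrial ribosome genes, 2 were higher and 2 lower, a smaller share in each direction than over all genes. Of 8 genes for uncoupling and nucleotide exchange, 1 passed the test, the mitochondrial creatine kinase Ckmt1 at -1.06 (adjusted p = 0.00534).

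Calcitriol under high salt moved no gene of the 72 past the threshold in the cortex. In CAL against HS cortex, edgeR called 0 of 72, with 0.266% of all 7524 genes higher and 0.492% lower; 8 of the 72 and 1219 of all 7524 had an unadjusted p under 0.05, limma voom called 0 and DESeq2 called 2. These 2 were Uqcrb and Ndufb7, the genes with the smallest p in edgeR as well. Uqcrb had 405.2 to 483.2 CPM (median 417.5) in CAL cortex and 531.1 to 601.2 CPM (median 595.5) in HS cortex. These ranges did not overlap, and the log2 fold change was -0.41 (SE 0.11, adjusted p = 0.0669). Ndufb7 had 339.5 to 463.9 CPM (median 364.3) in CAL cortex and 248.3 to 319 CPM (median 302.2) in HS cortex, also with no overlap, and a log2 fold change of 0.37 (SE 0.12, adjusted p = 0.131). The third was Ndufs1, at -0.33 (SE 0.12, adjusted p = 0.184). Ndufs7 had 426 to 698.1 CPM in CAL cortex, which overlapped the HS range, at 0.26 (SE 0.13, adjusted p = 0.325). Since CAL against HS shares its HS libraries with HS against NC, opposite signs in both are not independent.

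For CAL against NC cortex, edgeR, voom and DESeq2 each called 0 of the 72, edgeR called 0% of all 7524 genes in either direction, and 6 of the 72 and 892 of all 7524 had an unadjusted p under 0.05. The genes with the smallest p were Ndufa11 at -0.31 (95% interval -0.54 to -0.07, adjusted p = 0.289), Ndufb10 at -0.26 (-0.47 to -0.06, adjusted p = 0.296) and Ndufs7 at -0.30 (-0.55 to -0.06, adjusted p = 0.314). Uqcrb, with 395.5 to 522.5 CPM in NC cortex, differed by -0.02 (95% interval -0.22 to 0.19). Sdha was at -0.21 (-0.41 to -0.01, adjusted p = 0.39). Outside the complexes, the only gene of the lists around the chain called in CAL against HS cortex was Esrrg, at -0.82 (SE 0.15, adjusted p = 0.0141). Of the cell type markers, all 4 erythrocyte markers were higher by the test in CAL than in HS cortex, beside 0.266% of all genes. Their sum was 3536 to 6760 CPM in CAL cortex and 941.3 to 1722 CPM in HS cortex, without overlap. The part of this sum in the cortex results was not tested.

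**Figure D4:**
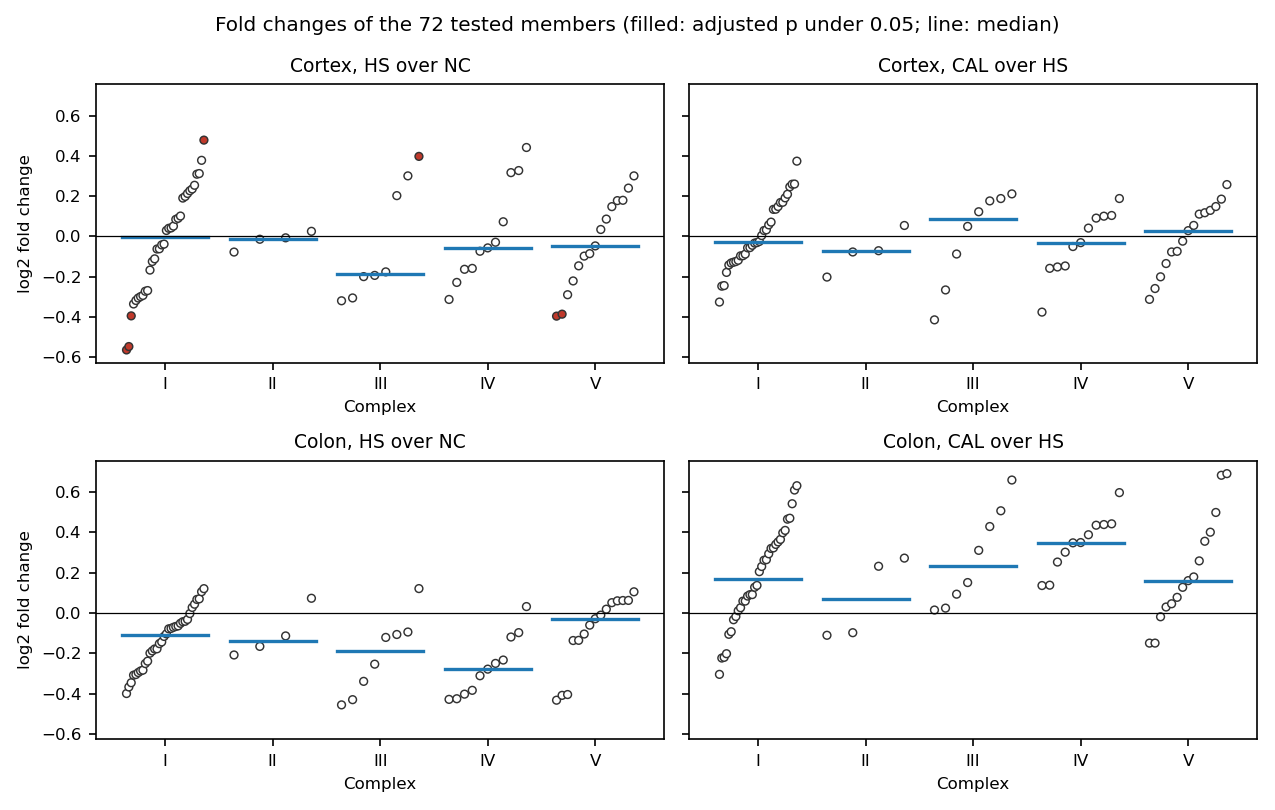
Log2 fold changes of the 72 tested genes by complex for HS over NC and CAL over HS in cortex (top) and colon (bottom); filled points have an adjusted p under 0.05 and lines mark the median. Filled points occur only in HS over NC cortex; in colon the medians lie below 0 for HS over NC, at -0.28 in complex IV, and above 0 for CAL over HS, at 0.35 in complex IV.

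In the colon none of the 72 genes passed the test for a treatment. For HS against NC colon, edgeR, voom and DESeq2 each called 0 of the 72, edgeR called 0% of all 7217 genes in either direction, and 0 of the 72 and 614 of all 7217 had an unadjusted p under 0.05. The log2 fold change was negative in 57 of the 72, with a median of -0.12 beside 0.04 over all genes tested. Cox6b1, the subunit that bridges the complex IV dimer, had the smallest p. It had 464.2, 552.1, 400.9, 364.9 and 361 CPM in HS colon and 601.4, 605, 579.2, 548.9 and 549.3 CPM in NC colon. HS replicate 2 alone reached the NC range, and the log2 fold change was -0.43 (95% interval -0.86 to 0.005, adjusted p = 0.583). Cox8a was at -0.38 and Uqcrh at -0.43, with adjusted p of 0.672 and 0.694.

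For CAL against HS colon, edgeR called 0 of the 72, with 0% of all 7217 genes higher and 0.0139% lower; voom and DESeq2 called 0 as well, and 4 of the 72 and 758 of all 7217 had an unadjusted p under 0.05. The log2 fold change was positive in 59 of the 72, in all 8 genes of complex III and all 11 of complex IV, with a median of 0.23 beside -0.03 over all genes tested. Uqcr10, a small complex III subunit near cytochrome c1, had the smallest p. It had 466, 1263, 1196, 970.1, 1290 and 1261 CPM in CAL colon, against 826.2, 1205, 467.2, 347.6 and 543.2 CPM in HS colon. CAL replicate 1 was low, HS replicate 2 was high, and the groups overlapped at a log2 fold change of 0.66 (95% interval 0.05 to 1.27, adjusted p = 0.431). The small complex V subunits Atp5me and Atp5f1e were at 0.69 and 0.68, with adjusted p of 0.456 and 0.459. Cox4i1 had 2105 to 4781 CPM in CAL colon and 1877 to 4473 CPM in HS colon, at 0.44 (SE 0.25).

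Colon libraries of one treated group differed widely. The 84 genes together held 3.31, 3.44 and 3.41% of counts in HS colon replicates 3, 4 and 5 and 4.76 and 5.68% in replicates 1 and 2. CAL replicate 1 was at 3.29%, and the other CAL libraries were at 4.68 to 6.00%. In HS replicates 3 and 4 the core and the other genes differed in degree. Other genes held 1.92% of counts in HS replicate 3 and 2.05% in HS replicate 4, against 2.84 to 3.31% in NC colon. Core genes held 1.39% in both, just below the 1.41 to 1.58% of NC colon. In HS replicate 5 and CAL replicate 1 core genes were further below the NC range, at 1.165 and 1.225%, with other genes at 2.24 and 2.06%. The median log2 fold change of HS against NC colon was -0.03 for core and -0.19 for other genes, and that of CAL against HS colon was 0.05 and 0.31. With single colon libraries left out, the median over the 72 genes ran from -0.28 to -0.06 for HS against NC and from 0.13 to 0.36 for CAL against HS. HS replicates 3 and 4 had stood apart in an earlier analysis of these data; without both, the medians were -0.01 and 0.06, and since both are among the lowest libraries here, a move towards 0 follows from leaving them out. The summed level of 5 B and plasma cell markers was 853.5, 1663 and 732.7 CPM in HS colon replicates 3, 4 and 5, 106.7 and 140.9 CPM in replicates 1 and 2, and 124.9 to 626 CPM in NC colon. The low CAL replicate 1 had 81.2 CPM of these markers, the lowest of all colon libraries, while CAL replicates 3 and 4 had 522.4 and 541.6 CPM and held 4.85 and 4.68% of counts in the 84 genes. The erythrocyte sum was 64.9 to 389.3 CPM in HS colon and 446.7 to 2539 CPM in NC colon, without overlap. The colonocyte marker sum was 8069 to 14150 CPM in HS colon and 12340 to 18110 CPM in NC colon, and smooth muscle markers were at 1806 to 22990 CPM in HS colon and 2623 to 15150 CPM in NC colon. Their part in the colon values was not tested.

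**Figure D5:**
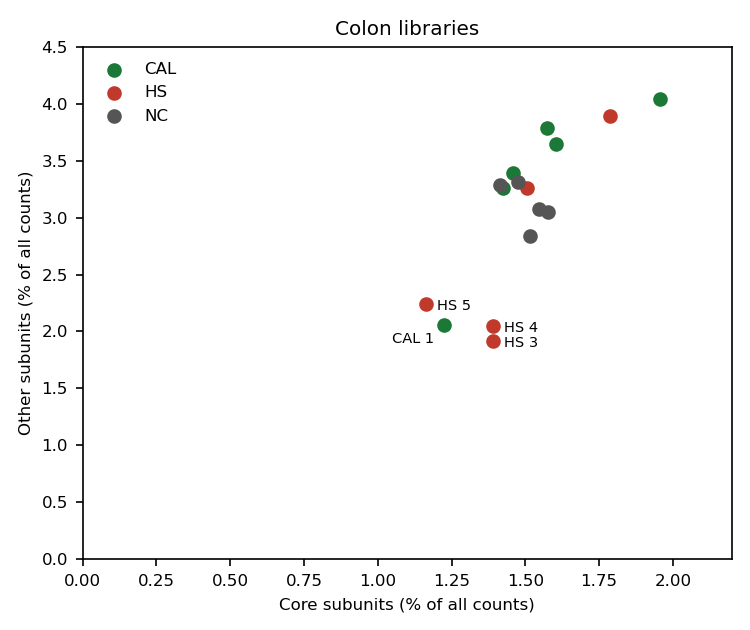
Share of counts held by core (horizontal axis) and other subunits (vertical axis) in each colon library, in percent of all counts. HS replicates 3, 4 and 5 and CAL replicate 1 lie below 2.5% on the vertical axis, apart from the other colon libraries, which lie at 2.84% or above.

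For CAL against NC colon, edgeR, voom and DESeq2 each called 0 of the 72, edgeR called 0% of all 7217 genes in either direction, and 0 of the 72 and 278 of all 7217 had an unadjusted p under 0.05. The median was 0.02, beside 0.005 over all genes tested. The genes with the smallest p were Ndufv2, a complex I iron-sulfur subunit, at 0.33 (95% interval -0.11 to 0.78), Cox4i1 at 0.34 (-0.18 to 0.85) and Cox7a2l at 0.33 (-0.19 to 0.85). No list gene around the chain was called in any colon comparison.

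Whether a treatment acted differently in the tissues was tested as a difference of effects. For HS against NC, colon minus cortex, edgeR, voom and DESeq2 each called 0 of the 72, beside 0.15% of all 5992 genes higher and 0.1% lower, and 3 of the 72 and 932 of all 5992 had an unadjusted p under 0.05. Uqcrb was one of them, with an effect of -0.09 in colon and 0.40 in cortex and a difference of -0.47 (SE 0.23, adjusted p = 0.313). Atp5mc2 differed by 0.52 (SE 0.23, adjusted p = 0.272) and Cox7b by -0.85 (SE 0.39, adjusted p = 0.292). For CAL against HS, the same 3 tools each called 0 of the 72, beside 0% of all 5992 genes in either direction, and 4 of the 72 and 644 of all 5992 had an unadjusted p under 0.05. Uqcrb differed by 0.51 (SE 0.22, adjusted p = 0.407), Cox7b by 0.82 (SE 0.38, adjusted p = 0.431) and Cox7a2l2, a single-locus row close in name to Cox7a2l, by 0.75 (SE 0.35, adjusted p = 0.442). The calls in HS against NC cortex are therefore not shown to be absent from the colon.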

How the data were processed

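The tools named in the submitters' processing notes are FastQC 0.11.9, Trimmomatic 0.39, HISAT2 2.1.0 and featureCounts 1.6.5, with Rnor_6.0 as the genome build. The gene annotation, the strand setting and the treatment of reads with several matches are not given in the sources used here. The authors deposited whole-number counts per gene, not normalized, and these were used as deposited. Per the labels' protocols, TRIzol was used for the RNA and a tagmentation kit, which does not mark strand, for the libraries.

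Each tissue was fitted on its own with its 3 groups, in edgeR 4.0.16 (R 4.3.3), with TMM scaling, filterByExpr (minimum count 10, minimum total 15) and the quasi-likelihood test. Tissue differences and differences of effects were fitted over all 31 libraries. Adjusted p-values run over all tested genes, with a threshold of 0.05. CPM levels are TMM-scaled, within a tissue for treatments and over all libraries for tissues; they have no length correction, so levels of different genes were not compared. Alternatives used DESeq2 1.42.0, limma 3.58.1 (voom with library weights), other scalings and filters, a replicate block, and fits without single libraries. The scripts were tested on simulated data. The labels list replicates as separate samples but do not say that each is another animal, so p-values measure only the spread between these samples, which may be technical.

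The genes and lists were chosen with earlier results of these data known. Named genes were those called, or, where more than 15 were called, the 8 with the smallest p in each direction, or, where none was called, the 3 with the smallest p, plus the gene of each complex with the smallest p between HS and NC in each tissue and a list of isoforms and catalytic subunits; others are named as examples of a group and were chosen after their values were seen. Cox7a2 was not analysed here.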

Additional observations from a re-analysis of the deposited data

Results flagged for a closer look

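Among 246 sets of libraries (a named gene or a complex in one group of one tissue, with 4 to 6 libraries), 13 had a library set far from the rest by Dixon's criterion, and chance alone marks about 1 in 20. In the cortex these were Cox6b1 at 477.3 CPM in CAL replicate 4, Cox6a1 at 2019 CPM in HS replicate 3, Ndufa11 at 284 CPM in HS replicate 4, Uqcrb at 531.1 CPM in HS replicate 4, Ndufs7 at 708.9 CPM in NC replicate 5, Ndufv1 at 709.4 CPM in NC replicate 3 and Uqcr10 at 945.2 CPM in NC replicate 3. The summed share of complex III was 0.5291% of counts in CAL cortex replicate 1, against 0.6361% in the nearest library. In the colon these were Ndufv2 at 422.8 CPM and Uqcrh at 405.3 CPM in CAL replicate 1, both low, Atp5f1b at 5006 CPM in CAL replicate 2, Ndufa11 at 303 CPM in HS replicate 2 and Atp5f1b at 4308 CPM in NC replicate 3.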

How the results depend on the processing

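Among the counts of genes called, 251 of the values from other settings lay within 1.5 times the reported count and 8 did not. All 8 concerned the cortex: HS against NC had 7 genes called, 3 with no low-count filter, 14 with limma voom and 2 to 8 when single libraries were left out, and CAL against HS had 0, and 2 with DESeq2. For single named genes, 8995 values kept their side of the threshold, 47 fell short of it and 23 passed it only under the other setting. None changed sign while called, but the 8995 include values whose sign changed with neither fit past the threshold. In NC cortex against NC colon the count of called genes was 42 with the reported settings, 43 with DESeq2 and 51 with voom. Same-numbered libraries shared only a number by the rule used, which asks for a correlation of their deviations from the group means above 0.1 in every pair. Within a tissue the 28 correlations ran from -0.228 to 0.245. Between cortex and colon 14 of 15 were positive, from -0.041 to 0.246, and 8 were above the highest with any other number, a hint from the data and not from the labels. With the replicate number as a block, 9 genes were called in HS against NC cortex, 43 in NC cortex against NC colon and 0 in the other comparisons. Counts of the genes called under other settings are given without the share of all genes called in the same fit. At this depth 12 of the 84 genes had too few counts to be tested.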
